A study of Sus scrofa with 15 samples.

Results

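The mitochondrial carriers of pig oocytes were examined as all genes whose symbol starts with SLC25A, together with the uncoupling proteins (UCP), the mitochondrial pyruvate carrier (MPC) and the voltage-dependent anion channels (VDAC). Symbols were looked up from the pig Ensembl gene identifiers, which gave 47 of the 22516 genes in the gene table. No measured value was used to choose them. The samples were 15 RNAseq libraries of *Sus scrofa* oocytes, 5 of each condition. GV (germinal vesicle) oocytes came uncultured from fresh ovarian follicles and had no first polar body. MII oocytes were taken after 44 h of in vitro maturation of the cumulus-oocyte complexes and showed a first polar body. 'Damaged' oocytes had gone through the same 44 h and showed none. Per the study's methods, there were 5 separate collections from abattoir ovaries with 15 oocytes per group, cumulus cells were stripped with hyaluronidase in all 3 groups, and the maturation medium contained pyruvate, cysteamine, gonadotrophins, EGF and follicular fluid. MII and 'damaged' together are called MIX, as in the study. The age and breed of the sows are not given in the sources used here. A 'damaged' oocyte is thus defined by the absent polar body alone, and RNA was measured in pools rather than in single cells.

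The carriers of the SLC25 family sit, with few exceptions, in the inner mitochondrial membrane and exchange metabolites, nucleotides and cofactors between cytosol and matrix. ADP/ATP carriers export newly made ATP against ADP, the phosphate carrier brings in the phosphate for ATP synthase, and VDAC pores let the same solutes pass the outer membrane. MPC, a complex of MPC1 and MPC2, admits pyruvate, the main energy substrate of the mammalian oocyte, which the cumulus cells help to supply.

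Library totals lay between 6.4 and 23.6 M estimated counts. The lowest was GV replicate 3, which was left out of the tests, so that 4 GV libraries were compared with 5 MII and 5 'damaged' libraries. The 8 measured oocyte markers summed to 12732 to 16973 TPM (a level per transcript length, scaled to a fixed total per library) in the 4 GV libraries, 8786 in GV replicate 3, 2756 to 4629 in MII and 3042 to 3731 in 'damaged'. Of these, *OOEP*, a maternal gene of the oocyte cortex, stood at 4051 TPM in GV, 1372 in MII and 1285 in 'damaged'. The 8 measured cumulus and granulosa markers together reached 2.10 to 4.38 TPM in GV, 2.71 to 5.51 in MII and 1.52 to 3.20 in 'damaged', and the 3 measured blood and immune markers at most 1.05 TPM. Of the 2 cumulus markers with enough counts for a test, *GATM* changed (log2 fold change 2.53, mean 0.773 TPM in GV, 2.54 in MII and 1.86 in 'damaged'). The other, *STAR*, went the other way without being called (-0.31, 0.822 TPM in GV, 0.302 in MII and 0.349 in 'damaged'). Among those with too few counts, *FSHR*, *AMH*, *INHBA*, *HAS2* and *TNFAIP6* had lower means in MII and 'damaged' than in GV, and *CYP11A1* higher ones. In libraries of pooled cells, fewer cells with a transcript and less of it per cell cannot be told apart.

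Of the 47 genes, 39 had enough counts to be tested. Between GV and MIX, 11 of the 39 were higher and 21 lower at a false discovery rate (FDR) under 0.01 by limma-voom over all genes, and 7 did not pass. Among all 13226 genes tested, 30.3% were higher and 37.2% lower, against 28.2% and 53.8% of the carriers. The median log2 fold change was -0.47 for the carriers and -0.16 for all genes. Of the differentially expressed genes (DEGs, FDR under 0.01 and a log2 fold change beyond 2), *SLC25A31* was the carrier that rose (4.27% of all genes did) and 9 carriers fell (16.7% of all genes did). With GV replicate 3 included the counts were 11 higher and 19 lower, for which the share of all genes is not given. In normalised level, GV replicate 3 lay above all other GV libraries for 8 of the 39 carriers and below them for 20. No share of all genes is given for these counts either, so they cannot be read as particular to carriers. On the TMM scale, all 10 MIX libraries lay above all 4 GV libraries for 9 carriers and below them for 16, as for 24.3% and 29.3% of all genes. Statements on overlap refer to the 4 tested GV libraries. Direction depends on how libraries are scaled. TMM factors, used unless stated otherwise, were 1.35 to 1.73 in the GV libraries tested and 0.794 to 0.922 in MIX. With library sizes alone the median of all genes moved to -1.06, and 6 carriers were called higher and 24 lower (12.1% and 60.5% of all genes), with 0 DEGs higher and 15 lower (0.348% and 28.6%). The 6 that were higher under both scalings were *SLC25A31*, *SLC25A32*, *VDAC1*, *MPC2*, *SLC25A13* and *SLC25A20*, and 21 were lower under both. The share of all genes called under both scalings is not given, so these 2 counts have no background to be read against. *SLC25A4*, *SLC25A22* and *SLC25A43* were called lower with library sizes and not with TMM factors. The other 5 risers, *SLC25A5*, *SLC25A3*, *SLC25A16*, *SLC25A40* and *SLC25A21*, were not called with library sizes, and the first 4 turned negative there. Only 8 of the 15 libraries (GV replicates 4 and 5, MII and 'damaged' replicates 3 to 5) bear the same name in the gene table and in the transcript files. In these alone, a choice made after seeing the data, 9 of 39 carriers were higher in MIX and 16 lower (24.3% and 31.2% of all genes), and the calls of *SLC25A3*, *SLC25A14*, *SLC25A16*, *SLC25A24*, *SLC25A26*, *SLC25A30* and *SLC25A36* were lost. Both scalings are drawn in the plot of fold changes by substrate.

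**Figure D1:**
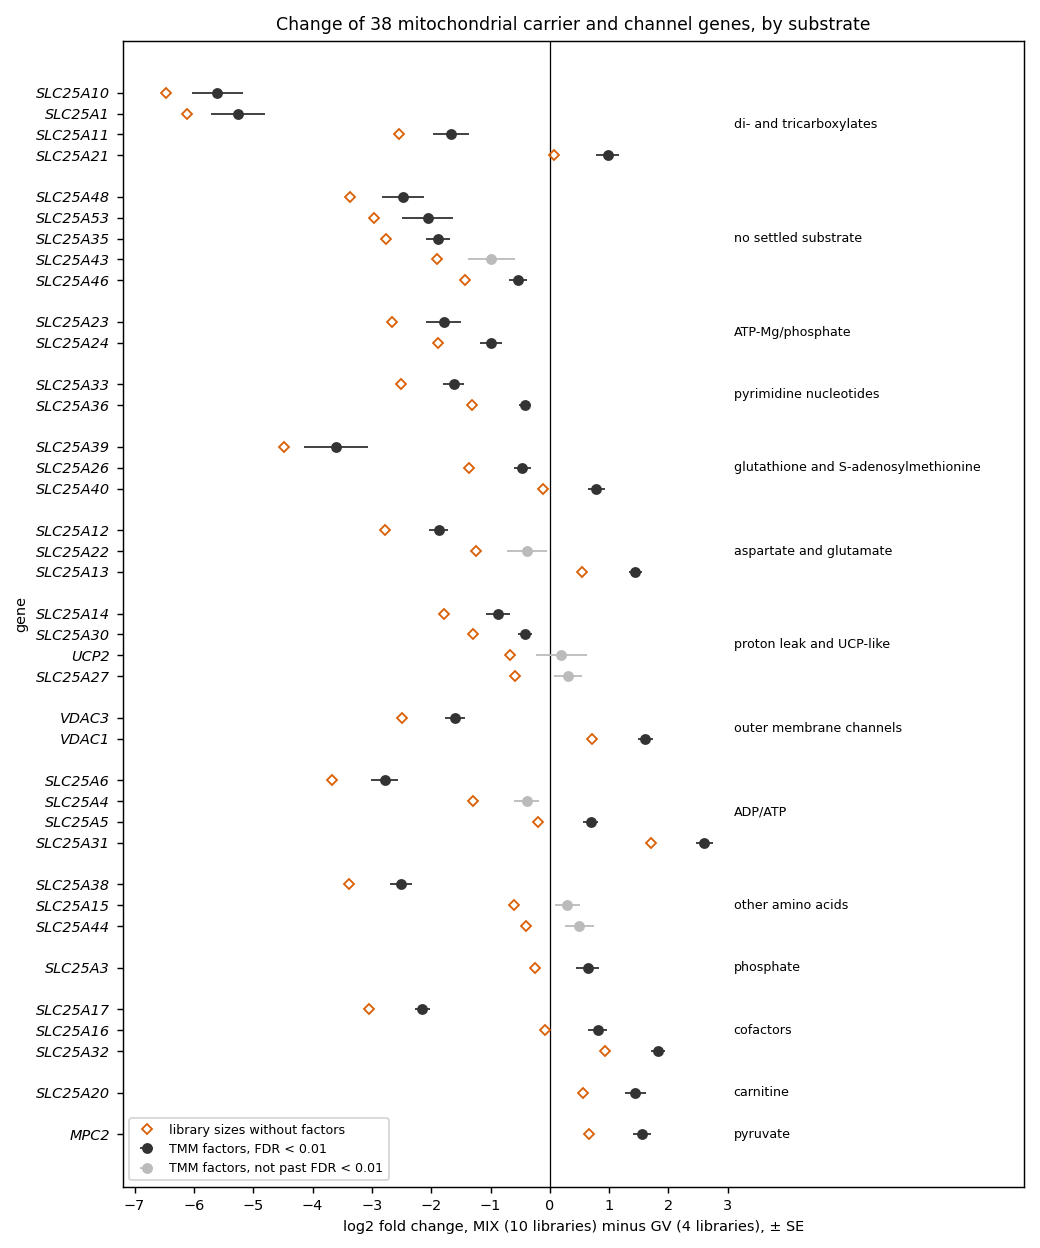
Log2 fold change of MIX (10 libraries) against GV (4 libraries) for 38 of the 39 tested genes, grouped by transported substrate; circles with bars are estimates ± SE with TMM factors, dark where FDR was under 0.01, and open diamonds are the same fit on library sizes. *SLC25A31* lies furthest to the right at 2.60 and *SLC25A10* furthest to the left at -5.60, and the diamonds lie to the left of the circles for all 38 genes.

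The ADP/ATP carriers changed places. *SLC25A31*, the isoform known from germ cells (chromosome 8, 97095503 to 97120940, Sscrofa11.1, RefSeq), rose 6.07-fold. Its level in normalised CPM (counts scaled to library size and TMM factor) was 61.9, 40.6, 41.04 and 47.5 in GV, 330.2, 311, 269.7, 351 and 251 in MII and 303, 325, 244, 284 and 221 in 'damaged'. Every MIX library was above every GV library. The log2 fold change was 2.60 ± 0.14 (SE, FDR = 1.19e-12), and 1.71 with library sizes. *SLC25A6*, one of the widely expressed isoforms, moved the other way. Its normalised CPM was 51.1, 71.8, 62.9 and 106 in GV, 14.8, 7.84, 12.3, 5.88 and 12.01 in MII and 11.99, 5.60, 14.8, 10.3 and 12.4 in 'damaged', with no overlap of the groups. It fell by 2.79 ± 0.22 on the log2 scale (SE, FDR = 3.81e-10), a 6.90-fold lower level, and with library sizes the change was -3.68.

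*SLC25A5*, the isoform of proliferating cells (chromosome X, 97919295 to 97922245), had 194, 133, 146 and 135 normalised CPM in GV, 197, 247, 242, 258 and 281 in MII and 225, 251, 294, 246 and 193 in 'damaged'. The groups overlapped by the highest GV and the lowest MIX library. Its log2 fold change was 0.69 ± 0.13 (SE, FDR = 5.1e-05) with TMM factors and -0.20 (FDR = 0.0885) with library sizes. Its TPM went from 315 ± 23.4 (SD, n = 4) in GV to 249.7 ± 35.3 (n = 5) in MII and 254 ± 35.2 (n = 5) in 'damaged'. *SLC25A4*, the heart and muscle isoform, had 32.9, 17.9, 25.4 and 27.3 normalised CPM in GV and a lowest, median and highest value of 11.6, 17.4 and 28.8 in the 10 MIX libraries. The groups overlapped, and the log2 fold change of -0.39 ± 0.21 (SE, FDR = 0.1) did not pass the threshold. It was -1.29 with library sizes and -1.15 with estimated counts summed per gene, both past it, and -0.71 with a 10 CPM filter, also past it. The 4 mRNAs are closely related in sequence, so reads may have been divided among them by Kallisto, and the single values carry that uncertainty.

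As shares of the 4 carriers' summed TPM, *SLC25A31* made up 11.3% ± 1.28 (SD, n = 4) in GV, 42.6% ± 5.74 (n = 5) in MII and 40.6% ± 4.74 (n = 5) in 'damaged'. The share of *SLC25A6* was 28.6% ± 8.70 in GV, 2.48% ± 0.953 in MII and 2.71% ± 0.939 in 'damaged'. *SLC25A5* had the largest mean share in each group, with 55.1% ± 7.25, 52.6% ± 5.07 and 54.3% ± 3.83, although *SLC25A31* was ahead in MII replicate 1 (49.6% against 45.3%). GV replicate 3, outside the tests, held 48.3% *SLC25A6* and 36.5% *SLC25A5*, beyond the range of the other GV libraries, and 11.9% *SLC25A31*, within it. The summed TPM of the class was 582 ± 105 in GV, 473 ± 30.4 in MII and 467 ± 33.7 in 'damaged'.

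**Figure D2:**
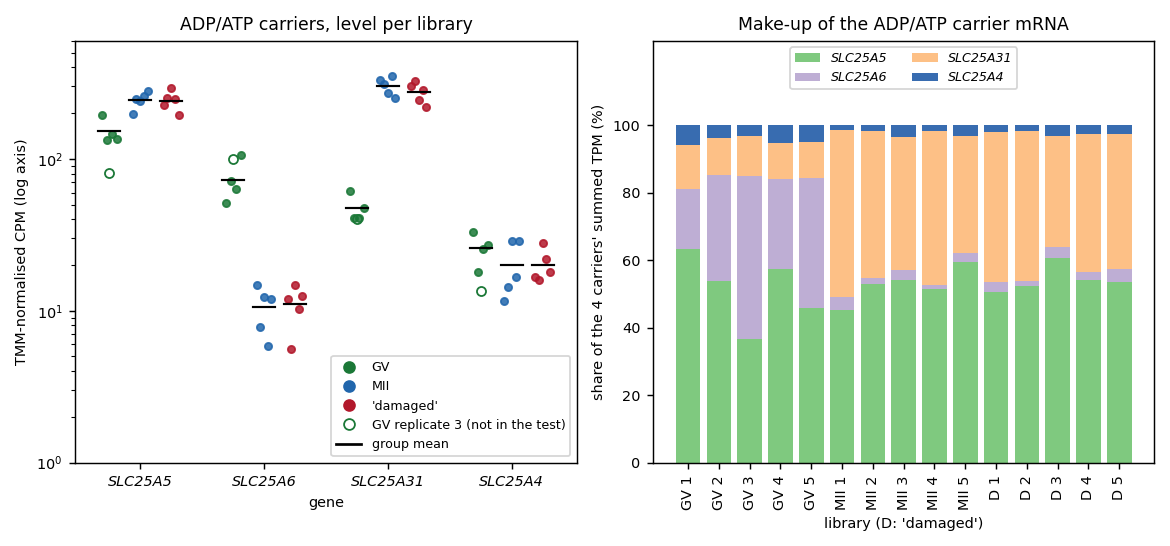
Left, TMM-normalised CPM of the ADP/ATP carriers per library on a log axis, with group means as bars and GV replicate 3 as an open circle; right, the share of each carrier in their summed TPM for all 15 libraries. *SLC25A31* takes 32.9% to 49.6% of the MIX libraries against 10.6% to 13.2% of the tested GV libraries, and *SLC25A6* at most 3.70% against 17.9% to 38.6%.

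A ratio of related carriers within a library does not depend on the scaling. Across 11 pairs that carry like substrates, 10 changed between GV and MIX by a two-sided exact permutation test over libraries (p = 0.000999 each, the smallest that 1001 splits allow), and in these 10 the groups did not overlap. The log2 ratio of *SLC25A6* to *SLC25A31* went from 0.58 ± 0.61 (SD, n = 4) to -4.80 ± 0.66 (n = 10), and that of *SLC25A5* to *SLC25A31* from 1.67 ± 0.13 to -0.24 ± 0.30. *SLC25A12* to *SLC25A13* moved from -3.13 ± 0.28 to -6.45 ± 0.33, and *VDAC1* to *VDAC3* from -0.81 ± 0.39 to 2.40 ± 0.32. *SLC25A39* to *SLC25A40* shifted by -4.37 and *SLC25A33* to *SLC25A36* by -1.19. The pair that did not pass was *SLC25A23* to *SLC25A24* (shift -0.78, exact p = 0.0589). The 6 pairs among the ADP/ATP carriers share genes and are not independent of each other. No share over other gene pairs was computed, so the count of 10 cannot be read as particular to carriers. Of all single genes, 24.3% were higher and 29.3% lower in MIX without overlap. Between MII and 'damaged', the exact p was under 0.05 for none of the 11 pairs.

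**Figure D3:**
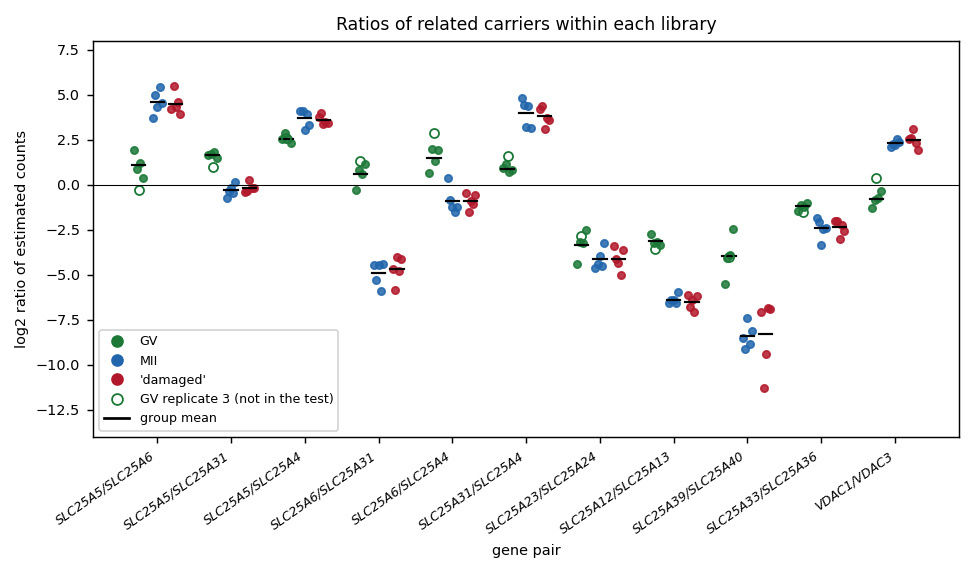
Log2 ratio of the estimated counts of related carriers within each library, for 11 pairs; filled points are the libraries of each group, open circles GV replicate 3 and bars the group means. In 10 pairs all MII and 'damaged' libraries lie on the same side of all 4 tested GV libraries, and in *SLC25A23*/*SLC25A24* the groups overlap.

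At the outer membrane, the channels diverged. *VDAC1* (chromosome 2, 136302188 to 136334461) had 94.9, 66.3, 78.6 and 68.1 normalised CPM in GV, 187, 224, 227, 259 and 244 in MII and 239, 246, 303, 220.0 and 192 in 'damaged', all MIX libraries being above all GV libraries. It rose 3.05-fold, with a log2 fold change of 1.61 ± 0.13 (SE, FDR = 4.6e-10) and 0.71 with library sizes. *VDAC3* (chromosome 17, 11410313 to 11425395) had 229, 121, 133 and 85.6 in GV, 44.1, 45.7, 48.8, 43.8 and 46.3 in MII and 41.6, 40.9, 34.999, 44.8 and 49.9 in 'damaged', and the change of -1.60 ± 0.17 (SE, FDR = 3.67e-08) was without overlap. In GV replicate 3, 46.1 normalised CPM of *VDAC3* lay within the MIX range. On the TPM scale *VDAC3* had the highest mean of all carriers in GV (359 ± 94.5), where it and *SLC25A5* did not differ beyond their spread, and fell behind *SLC25A26* in MII at 58.5 ± 5.95.

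Among the fuel carriers, *MPC2*, the measured subunit of the pyruvate carrier (chromosome 4, 83069914 to 83091687), rose 2.95-fold. Its normalised CPM was 40.2, 25.4, 28.8 and 23.5 in GV, 71.6, 67.7, 97.2, 76.9 and 102 in MII and 84.98, 74.8, 108, 85.4 and 87.7 in 'damaged', and all MIX libraries were above all GV libraries. The log2 fold change was 1.56 ± 0.15 (SE, FDR = 8.36e-09), and 0.66 (FDR = 0.000566) with library sizes. *MPC1*, its partner subunit, was not analysed here. *MPC1L*, a related gene outside the chosen set, fell (-3.01, FDR = 1.12e-08) from 16.9 to 0.880 TPM in MII and 1.09 in 'damaged'. *SLC25A20*, which exchanges carnitine for acylcarnitine so that fatty acids can be oxidised, had 6.20, 6.91, 7.87 and 8.16 normalised CPM in GV and 12.9, 20.8 and 25.8 as lowest, median and highest of the MIX libraries, again without overlap. It changed by 1.44 ± 0.18 (SE, FDR = 2.6e-07), and by 0.56 (FDR = 0.00875) with library sizes. *SLC25A3*, the phosphate carrier, had 16.9, 13.98, 16.6 and 22.7 in GV and 19.4, 27.8 and 46.3 in MIX, with overlapping groups. Its log2 fold change of 0.64 ± 0.19 (SE, FDR = 0.00515) was -0.25 with library sizes, and the call was lost without GV replicate 1, 2 or 4 (FDR = 0.0107, 0.0287 and 0.0164). It was also lost with the replicate number as a block in the fit (0.58, FDR = 0.0134) and with a 10 CPM filter (0.32, FDR = 0.139).

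The di- and tricarboxylate carriers held the deepest falls. *SLC25A10*, the dicarboxylate carrier, had 91.8, 156, 181 and 335 estimated counts in the GV libraries, 0.990, 1.98, 1.97, 4.95 and 3.94 in MII and 0, 2.97, 3.95, 1.97 and 0.983 in 'damaged'. *SLC25A1*, which exports citrate for lipid synthesis, had 38.4, 58.5, 56.02 and 125.2 in GV, 0, 1.00, 0.997, 3.01 and 0 in MII and 1.00, 3.01, 0, 0 and 0.996 in 'damaged'. Both transcripts were thus at or near 0 after maturation. The fitted log2 fold changes were -5.60 ± 0.42 (SE, FDR = 1.74e-10) and -5.25 ± 0.46 (SE, FDR = 1.46e-09), and at so few counts their size depends on the prior count of the fit. *SLC25A11*, the oxoglutarate/malate carrier, fell as well, by 1.67 on the log2 scale (FDR = 4.56e-05). *SLC25A21*, which carries oxoadipate and oxoglutarate, was the riser of the class, from 13.04, 9.05, 8.51 and 5.08 normalised CPM in GV to 13.1, 15.7 and 22.4 (lowest, median and highest) in MIX. Its change was 0.98 ± 0.19 (SE, FDR = 0.000106) with TMM factors and 0.07 (FDR = 0.726) with library sizes.

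The aspartate/glutamate carriers of the malate-aspartate shuttle split like the channels. *SLC25A13* (chromosome 9, 75781421 to 75980606) had 173, 165, 169 and 149 normalised CPM in GV and 379, 439 and 537 as lowest, median and highest in MIX, and changed by 1.44 ± 0.11 (SE, FDR = 3.61e-10). Its counterpart *SLC25A12* (chromosome 15, 77895935 to 78021930) had 26.2, 17.3, 18.5 and 14.7 in GV and 3.85, 5.35 and 6.07 in MIX, and changed by -1.87 ± 0.16 (SE, FDR = 1.15e-09). Neither pair of groups overlapped. The glutamate carrier *SLC25A22* did not pass (-0.38, FDR = 0.316). The shuttle's enzymes from the partner list moved unequally. *MDH1*, the cytosolic malate dehydrogenase, changed by -2.65, while *GOT1* and *GOT2* changed by 0.92 and 0.40, and *MDH2* did not pass (0.29, FDR = 0.247). With library sizes *GOT1* was at 0.03, no longer called, and *GOT2* at -0.50, called lower (FDR = 0.000531).

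**Figure D4:**
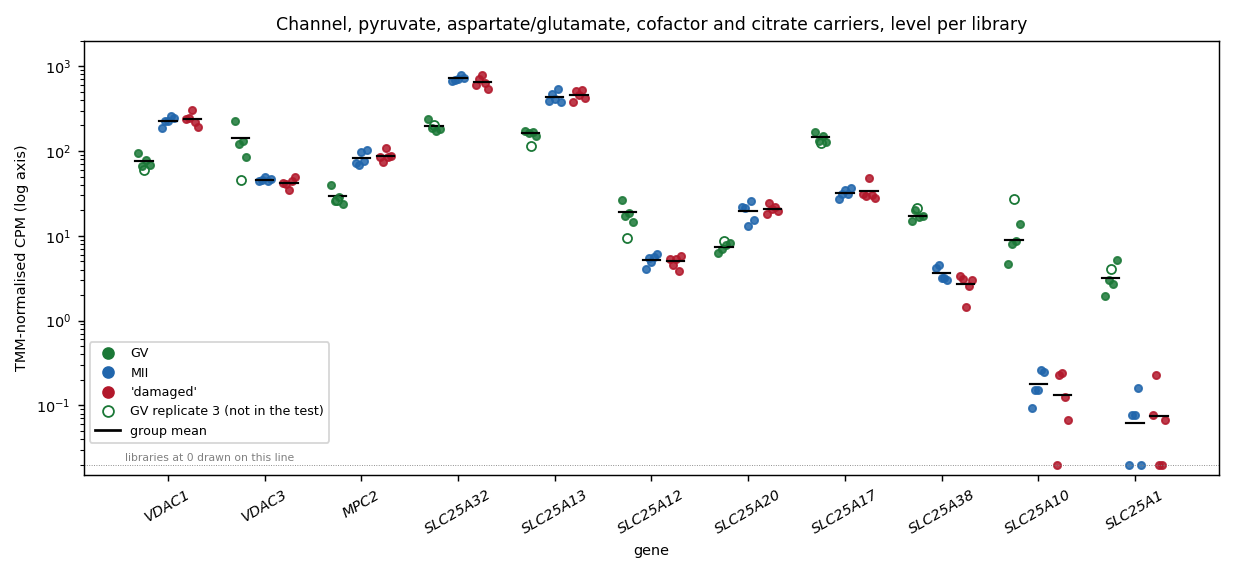
TMM-normalised CPM per library on a log axis for 11 carriers and channels; filled points are libraries, open circles GV replicate 3, bars group means, and libraries at 0 are drawn on the dotted line. *VDAC1*, *MPC2*, *SLC25A32*, *SLC25A13* and *SLC25A20* lie higher in all MIX libraries than in the tested GV libraries, and *SLC25A10* goes from 4.69 to 13.9 in GV to at most 0.262 in MIX.

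Cofactor carriers also went both ways. *SLC25A32*, which brings folate into mitochondria (chromosome 4, 33704810 to 33727796), had 236, 189, 171 and 184 normalised CPM in GV, 672, 689.9, 706, 799 and 723 in MII and 598, 714, 786, 638 and 544 in 'damaged'. It rose 3.53-fold without overlap (1.82 ± 0.12, SE, FDR = 1.28e-11), and by 0.93 on the log2 scale with library sizes. *SLC25A16*, tied to coenzyme A in mitochondria, had 4.76, 6.35, 7.26 and 6.22 in GV and 8.06, 11.02 and 13.5 in MIX, and changed by 0.81 ± 0.16 (SE, FDR = 0.000108) with TMM factors and was at -0.08 with library sizes, not called. *SLC25A17*, a carrier of coenzyme A, FAD and NAD that lies in the peroxisome, had 169, 133, 149 and 127 in GV and 27.2, 31.002 and 47.6 in MIX, and changed by -2.15 ± 0.13 (SE, FDR = 5.19e-12). On the TPM scale it was behind *VDAC3* and *SLC25A5* in GV (224 ± 9.76) and reached 24.4 ± 3.74 in MII and 26.02 ± 6.41 in 'damaged'.

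For glutathione import, *SLC25A39* had 1.23, 3.002, 3.58 and 7.92 normalised CPM in GV and 0, 0.256 and 0.682 in MIX (-3.61 ± 0.54, SE, FDR = 3.82e-06). Its relative *SLC25A40* had 57.2, 50.3, 53.99 and 43.4 in GV and 61.4, 95.03 and 105 in MIX (0.78 ± 0.14, SE, FDR = 4.47e-05), and was at -0.11 with library sizes. Both differed without overlap, in opposite directions with TMM factors. *SLC25A26*, which imports S-adenosylmethionine, had a smaller change of -0.47 (FDR = 0.00523) that was lost with all 5 GV libraries (-0.24, FDR = 0.25), with no filter on low counts, without GV replicate 1, 2 or 4 or without 'damaged' replicate 5. *SLC25A38*, the glycine carrier of haem synthesis, had 15.1, 20.4, 16.6 and 16.9 in GV and 1.44, 3.13 and 4.49 in MIX (-2.50 ± 0.19, SE, FDR = 1.31e-10). *ALAS1* and *FECH*, the first and the last enzyme of haem synthesis, changed by 0.80 and 0.54, and were at -0.08 and -0.35 with library sizes, past the threshold in neither case. The ornithine carrier *SLC25A15* (0.30, FDR = 0.196) and the branched-chain amino acid carrier *SLC25A44* (0.50, FDR = 0.0725) did not pass. Both pyrimidine nucleotide carriers were lower, *SLC25A33* at -1.62 (FDR = 5.86e-08) and *SLC25A36* at -0.42 (FDR = 0.00156) on the log2 scale, as were the calcium-regulated ATP-Mg/phosphate carriers *SLC25A23* (-1.79, FDR = 1.09e-05) and *SLC25A24* (-0.99, FDR = 9.07e-05).

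Of the uncoupling proteins and their relatives, none rose. *SLC25A14* (-0.87, FDR = 0.000565) and *SLC25A30* (-0.41, FDR = 0.00311) were lower, *SLC25A14* with an FDR of 0.0261 once GV replicate 3 was included, and *SLC25A30* with 0.0216 without GV replicate 2 and 0.0189 without GV replicate 5. *UCP2* had few counts, with 0.255, 0.683, 0.384 and 0.672 normalised CPM in GV and 0.127, 0.586 and 1.14 in MIX (0.19, FDR = 0.693), and *SLC25A27* did not pass (0.30, FDR = 0.252). Of the 5 tested carriers without a settled substrate, 4 were lower with TMM factors, as were 37.2% of all genes, and 1 of the 4, *SLC25A46*, lost its call without single GV libraries. *SLC25A48* had 3.01, 3.01, 4.22 and 4.33 normalised CPM in GV and 0.0936, 0.844 and 1.58 in MIX, and changed by -2.47 ± 0.36 (SE, FDR = 2.33e-06). *SLC25A53* had 1.78, 0.779, 1.39 and 0.798 in GV and 0.0600, 0.268 and 0.601 in MIX, and changed by -2.06 ± 0.42 (SE, FDR = 0.000179). *SLC25A35* had 5.81, 10.1, 7.96 and 11.4 in GV and 1.53, 2.35 and 3.19 in MIX, and changed by -1.88 ± 0.20 (SE, FDR = 2.55e-08). In all 3 every MIX library was below the 4 tested GV libraries. GV replicate 3, with 1.57 normalised CPM of *SLC25A48* and 0.590 of *SLC25A53*, was within the MIX range for both. *SLC25A46*, which lies in the outer membrane and takes part in mitochondrial shape, changed by -0.54 (FDR = 0.00344), and missed the threshold without GV replicate 1, 4 or 5 (FDR = 0.0107, 0.0134 and 0.0142). *SLC25A43* did not pass (-0.99, FDR = 0.0291), and was called without 'damaged' replicate 3 (-1.18, FDR = 0.00697).

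Of the 47 genes, 8 were not tested. *UCP3*, *SLC25A34* and *SLC25A45* were at 0 in the 8 gene-table columns used, where a count of 0 allows up to 3 counts, or 0.127 to 0.220 CPM by library (counting error only). *SLC25A25*, *SLC25A28*, *SLC25A41*, *SLC25A42* and *SLC25A47* had too few counts, with sums over the 4 GV libraries of 19.9, 19.2, 3.02, 40.3 and 4.06. *SLC25A28*, a mitochondrial iron importer, had 0.988 counts over the 10 MIX libraries. *UCP1*, *MPC1*, *VDAC2*, *SLC25A2*, *SLC25A18*, *SLC25A29*, *SLC25A37*, *SLC25A51* and *SLC25A52* were not analysed here. By RefSeq positions, 3 neighbouring pairs lie in the set. *SLC25A41* lies 1932 bases from *SLC25A23* on chromosome 2, *UCP3* 13470 bases from *UCP2* on chromosome 9, and *SLC25A5* 12523 bases from *SLC25A43* on chromosome X.

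Added over all carriers, the TPM was 2294 ± 150 (SD, n = 4) in GV, 1372 ± 87.5 (n = 5) in MII and 1388 ± 106 (n = 5) in 'damaged', and 1846 in GV replicate 3. These sums are a description on a scale that fixes each library's total. The order of levels changed. In GV, *VDAC3*, *SLC25A5*, *SLC25A17*, *SLC25A26* and *SLC25A6* had the highest mean TPM, and *SLC25A6* varied widely (172 ± 81.8), so that it was not apart from its neighbours *SLC25A26* (191 ± 22.96) and *SLC25A13* (129 ± 13.1). In MII the highest were *SLC25A5* (249.7 ± 35.3), *SLC25A31* (201 ± 22.1), *SLC25A32* (180.4 ± 15.4), *SLC25A13* (166 ± 22.5) and *VDAC1* (157 ± 20.98). Neighbours in this order differed by less than the sum of their SDs. The same 5 led in 'damaged', with 254, 188, 170.1, 180.1 and 169.7 TPM. By class, the summed TPM of the pyrimidine nucleotide carriers went from 185 ± 39.6 in GV to 44.9 ± 5.50 in MII and 43.6 ± 6.67 in 'damaged', and that of the aspartate and glutamate carriers from 148 ± 12.9 to 169 ± 22.5 and 183 ± 25.9.

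MII and 'damaged' oocytes were then compared with GV apart and with each other, in a single fit over the 3 groups. Against the same GV libraries, 10 carriers were higher and 17 lower in MII (28.2% and 34.2% of all genes), and 11 higher and 19 lower in 'damaged' (28% and 33.4%). DEGs were 1 higher and 8 lower in MII (4.51% and 17% of all genes) and 1 higher and 9 lower in 'damaged' (4.08% and 16.4%). With library sizes 5 were higher and 24 lower in MII (10.9% and 57.5%), with 0 DEGs higher and 16 lower (0.363% and 29.4%), and 6 higher and 23 lower in 'damaged' (11.2% and 56%), with 0 DEGs higher and 15 lower (0.333% and 27.8%). Because both contrasts share the GV libraries, their values are given side by side without a measure of likeness. The log2 fold change of *SLC25A31* was 2.67 in MII and 2.53 in 'damaged', of *SLC25A6* -2.84 in MII and -2.73 in 'damaged', of *SLC25A32* 1.89 in MII and 1.75 in 'damaged', and of *SLC25A10* -5.27 in MII and -5.93 in 'damaged'. *VDAC1* was at 1.58 in MII and 1.64 in 'damaged', *MPC2* at 1.51 in MII and 1.61 in 'damaged', and *SLC25A38* at -2.28 in MII and -2.73 in 'damaged'.

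In the direct comparison no carrier passed the threshold (0% of all genes did), and the lowest FDR was 1.00. None of the 39 had an unadjusted limma p under 0.05, as 1.47% of all genes did, and none had one by edgeR's quasi-likelihood test or by DESeq2. The MII and 'damaged' libraries overlapped for all 39 carriers. Of all genes, 0.0983% were without overlap and higher in MII, and 0.174% lower. The 5 carriers ranked first in this contrast were *UCP2*, with an MII minus 'damaged' log2 difference of 0.90 (95% interval -0.02 to 1.82), *SLC25A38* with 0.45 (95% interval -0.06 to 0.96), *SLC25A27* with -0.40 (95% interval -0.92 to 0.12), *SLC25A53* with 0.87 (95% interval -0.41 to 2.14) and *SLC25A48* with -0.74 (95% interval -1.86 to 0.37). *UCP2*, *SLC25A53* and *SLC25A48* had under 2 normalised CPM in every matured library. For 30 of 39 carriers the 95% interval lay between -1 and 1, so that a 2-fold difference lay outside it. For *SLC25A31* it ran from -0.16 to 0.44 and for *MPC2* from -0.42 to 0.24. For *SLC25A39* the interval was wider, from -1.93 to 1.90, so that a 2-fold difference in either direction lay inside it. Group names here are those of the transcript-level deposits. The gene table columns named GV 1 to 3, MII 1 and 2 and 'damaged' 1 and 2 bear the totals of the same 7 libraries in another order, across all 3 groups, and which names are right was not tested. In the 8 libraries without this conflict, none of the 39 carriers differed between MII and 'damaged' at FDR under 0.01 (0% of all genes did) or at an unadjusted p under 0.05 (1.70% of all genes did).

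Isoform usage, the share of each transcript in its gene's TPM, was a further readout. Of 18 carriers with at least 2 testable transcripts, 11 had a transcript whose share changed between GV and MIX by over 10 percentage points at FDR under 0.01 (limma diffSplice over all transcripts). Over all genes it was 43.8% of 5101, against 61.1% of the carriers. *SLC25A36*, whose gene level moved little, exchanged an isoform. Its 4780-base transcript held 27.5, 33.5, 27.8 and 25.6% of the gene in GV and 0% to 1.496% in MIX (FDR = 3.26e-12). Its 4858-base transcript held at most 4.03% in GV and 19.4% to 37.5% in MIX (FDR = 6.35e-10). Neither pair of groups overlapped. *VDAC3* shifted toward its 562-base transcript, from 42.3% ± 6.73 (SD, n = 4) to 73.2% ± 4.56 (n = 10, FDR = 1.06e-05). *MPC2* shifted from the 4666-base toward the 1828-base transcript, whose share was 40.8, 16.8, 33.4 and 19.7% in GV and 51.5% to 59.1% in MIX (FDR = 2.53e-05).

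*SLC25A4* moved toward its short 1238-base transcript, as the 4352-base transcript went from 55.4% ± 23.5 to 16.8% ± 3.81 (FDR = 1.56e-05). This is the gene whose fold change depended on whether counts were scaled for transcript length. *SLC25A20* went to its 1769-base transcript, from 49.5, 15.7, 36.7 and 22.5% in GV to 42.9% to 92.02% in MIX (FDR = 0.000308), with overlap. *SLC25A46* gained in its 4590-base transcript, from 10.5% ± 3.65 to 40.6% ± 14.2 (FDR = 4.77e-05), and *SLC25A13* in its 3210-base transcript, from 64.5% ± 17.3 to 91.9% ± 7.63 (FDR = 1.84e-06). The 1253-base transcript of *SLC25A35* held 44.8, 81.6, 49.7 and 61.2% in GV (FDR = 3.15e-07) and was listed at 0 in all 10 MIX libraries. Over the gene's 379 counts pooled from these libraries, this allows up to 0.792% of the counts. In a single library the limit is wider, and a share of counts is not a share of TPM. *SLC25A17*, *SLC25A26* and *SLC25A27* also changed. *SLC25A6*, *SLC25A12*, *SLC25A16*, *SLC25A21*, *SLC25A38*, *SLC25A40* and *VDAC1* were tested and had no transcript past both limits. *VDAC1* passed on FDR (0.00923) with shifts of -9.94 and 9.88 percentage points. The 1633-base transcript of *SLC25A38* shifted by -25.8 percentage points at FDR = 0.019. Shares come from Kallisto's division of short reads among overlapping transcripts, and the precision of that division is not part of these errors.

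**Figure D5:**
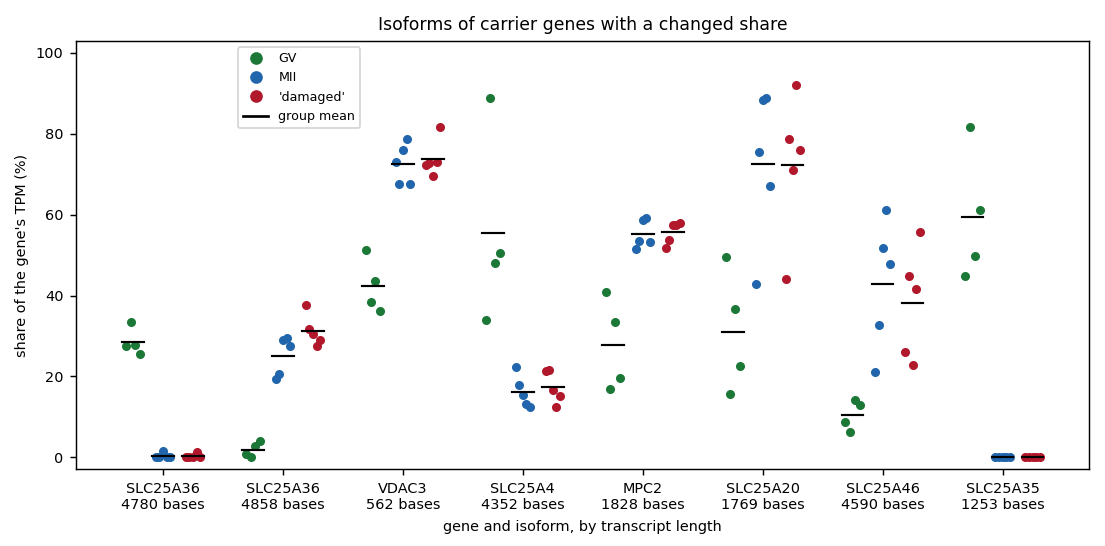
Share of 8 transcripts in their gene's TPM per library (percent), labelled by gene and transcript length; points are the 4 GV, 5 MII and 5 'damaged' libraries and bars the group means, and the transcripts were picked for display after their values were seen. The *SLC25A36* transcript of 4780 bases goes from 25.6% to 33.5% in GV to at most 1.496% in MIX, and the MII and 'damaged' points overlap for each transcript.

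Genes that work with the carriers were read from a list of 48 partners, of which 39 were tested, and log2 fold changes of MIX against GV follow. With TMM factors 12 were higher and 16 lower, where 30.3% and 37.2% of all genes were, and with library sizes 1 was higher and 26 lower, where 12.1% and 60.5% of all genes were. Of the machinery that inserts carriers into the inner membrane, the receptor *TOMM70* (-1.48), the translocase subunits *TIMM22* (-2.71) and *TIMM29* (-1.93) and the chaperone *TIMM10* (-3.79) fell, with FDR of at most 6.33e-08. *AGK*, a further subunit of that translocase, was at 0.72 (FDR = 5.54e-05), and at -0.18 with library sizes. Beside *MPC2*, the pyruvate dehydrogenase subunits *PDHA1* and *DLAT* were at -0.88 and 1.13, and the lactate dehydrogenase gene *LDHA* at -1.61. These values stand for the named genes and not for the whole enzymes, of which other listed genes are not reported here. Beside the citrate carrier, the citrate-cleaving enzyme *ACLY* was at -0.88 and citrate synthase *CS* at 1.03. Beside *SLC25A20*, *CPT2*, which regenerates acyl-CoA in the matrix, fell (-1.05, FDR = 1.78e-07), and *CPT1A* and *CPT1B* had too few counts to be tested. Beside *SLC25A32*, the mitochondrial serine hydroxymethyltransferase *SHMT2* was at 1.07 and *MTHFD1L* at -1.06. With library sizes *DLAT*, *CS* and *SHMT2* were at 0.24, 0.13 and 0.18, not past the threshold.

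The labels give the molecule as polyA RNA. A change of tail length and a change of RNA amount cannot be told apart in such libraries, and neither tail length nor protein was measured.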

How the data were processed

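RNA, given as polyA RNA in the labels, was measured in 15 libraries of pooled pig oocytes. Per the study's methods, the authors made cDNA with the SMART-Seq HT kit, trimmed single-end reads with AfterQC, and ran Kallisto (version 0.43 in the submitters' processing notes) on the Ensembl cDNA of Sscrofa11.1. The files deposited by the authors hold estimated counts and TPM per transcript for each library, and a gene table of estimated counts scaled by transcript length (lengthScaledTPM of tximport). The authors' TPM values fix each library's total, so they show levels but not amounts per cell.

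Of the gene table's 15 columns, 8 had the total of the library they name. The other 7 were not used, since their names (GV 1 to 3, MII 1 and 2, 'damaged' 1 and 2) and their totals pointed to different libraries. For all 15 libraries, transcript values were therefore summed into gene counts by the same scaling, with transcripts placed in genes by an exact match to the 8 columns (18942 of 22516 genes, holding at least 99.99% of the estimated counts). The result differed from the 8 columns by at most 3.17e-07%. As these columns guided the placement, that agreement was built in and does not check the other 7 libraries. In simulated data, made from runs of consecutive transcripts by the same scaling and without noise, 99.3% of 4977 genes were placed correctly. That checks the search alone and cannot show whether real genes are formed in this way.

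Genes passed edgeR's filterByExpr (edgeR 4.0.16). limma-voom (limma 3.58.1, R 4.3.3) with TMM factors was fitted to 14 libraries, without GV replicate 3, in 2 groups for MIX against GV and in 3 groups for the other contrasts. FDR is the Benjamini-Hochberg adjusted p over all genes. Isoform usage was tested with limma's diffSplice, for genes of at least 1 TPM. Ratios are log2 of the counts plus 0.5, with a two-sided exact permutation test over libraries, which cannot give a p below 0.000999 (0.00794 for MII against 'damaged'). edgeR's quasi-likelihood test, DESeq2 1.42.0, library sizes, other filters, unscaled counts, pseudocounts of 1 and 0.1, all 5 GV libraries, the replicate number as a block and leaving out each library were alternatives, and so were the 8 libraries with agreeing names, chosen after seeing the data. The fits were also run on simulated counts with known changes. Their outcome is not given here. The simulation did not set the difference in scaling between GV and MIX, so it is no check on the choice of scaling.

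The carriers, gene lists and tests were chosen with earlier results of these data known. Named were all ADP/ATP, phosphate, pyruvate and VDAC members, the 10 largest rises and falls of MIX against GV, the 5 smallest p of MII against 'damaged', and untested members. Other members were named to complete a class or a pair, and partner genes and transcripts were picked for display after their values were seen. Symbols were looked up by Ensembl gene identifier, and positions are those of RefSeq for Sscrofa11.1, matched by symbol. No sequence was used. Results of 1 tested carrier and some partner genes are not reported here, and the counts include them.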

Additional observations from a re-analysis of the deposited data

Results flagged for a closer look

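Among 117 sets of 4 or 5 libraries (39 carriers in each condition), 5 held a library whose gap to the nearest other exceeded Dixon's 95% limit, and chance flags about 1 in 20 such sets. All values are TMM-normalised CPM. *SLC25A17*, the peroxisomal cofactor carrier, was at 47.6 in 'damaged' replicate 3 against 28.2 to 31.01 in the other 'damaged' libraries. *SLC25A21*, the oxoadipate carrier, was at 20.6 in MII replicate 2 against 15.6 to 15.7 in the other MII libraries. *SLC25A23*, a calcium-regulated ATP-Mg/phosphate carrier, was at 0.317 in 'damaged' replicate 4 against 0.993 to 1.09. *SLC25A27*, a UCP relative, was at 9.75 in GV replicate 4 against 4.62 to 5.37. *SLC25A30*, another UCP relative, was at 155 in MII replicate 5 against 132 to 137.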

How the results depend on the processing

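Counts of carriers, switched genes or ratios called stayed within 1.5 times in 340 recomputations and moved further in 18, and none was called between MII and 'damaged' in any. With library sizes, 6 carriers were higher in MIX, 5 in MII and 6 in 'damaged', DEGs were 0 higher in each, and 15, 16 and 15 lower. A 10 CPM filter left 24 carriers and 7462 genes: 13 carriers were lower in MIX (40.8% of all genes) and 12 in 'damaged' (38%), 6 were higher in 'damaged' (33.1%), and 4 DEGs were lower in each contrast (15.8% in MIX, 15.9% in MII, 15.5% in 'damaged'). In the 8 libraries with agreeing names, 2 DEGs were higher in MIX and 2 in MII (5.29% and 5.62% of all genes). Leaving out 1 library gave 1 to 2 DEGs higher in MII against GV (2 without GV replicate 1). With library sizes the log2 fold change of MIX against GV turned negative for *SLC25A15* (-0.60), *SLC25A16* (-0.078), *SLC25A27* (-0.59), *SLC25A3* (-0.25), *SLC25A40* (-0.11), *SLC25A44* (-0.40), *SLC25A5* (-0.20) and *UCP2* (-0.67). That scaling moves the median of all genes from -0.16 to -1.06. *UCP2* ran from -0.046 (without GV replicate 1) to 0.41 when each library was left out. The cause of the other changes was not tested. The *SLC25A23*/*SLC25A24* log2 ratio reached an exact p of 0.0230 with all 5 GV libraries (-0.87), 0.0035 without GV replicate 1 (-1.14), 0.0336 without MII replicate 5 and 0.0392 without 'damaged' replicate 1. Same-numbered libraries of different groups correlated at -0.10 to 0.32 (median 0.072, 3 of 13 pairs over 0.1). Differently numbered libraries correlated at -0.28 to 0.27 (median -0.0093). These ranges overlap, and whether equal numbers mark a shared collection is not stated. The numbers were therefore not taken as pairs, which leaves pairing unsettled. With the replicate block every count stayed within 1.5 times while *SLC25A3* was at 0.58 (FDR = 0.0134). A gene at 0 can still hold up to 3 counts.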
